A study of Homo sapiens with 12 samples.

Results

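The 10 genes described here, RELA, RELB, NFKB1, NFKB2, NFKBIA, NFKBIE, TNFAIP3, BIRC3, ICAM1 and LIF, are subunits of the transcription factor NF-κB and genes that NF-κB switches on, among them its own inhibitors. They and the gene lists below were chosen by name with earlier results of these data known. Counts set beside shares over all genes therefore describe these genes and test no excess. All 10 were found among the 26475 gene symbols of the table and among the 14582 genes that passed the filter on low counts. RNA-seq was performed on MIAPaCa2, an established human pancreatic cancer cell line, as parental cells and as oxamate-resistant cells, each with or without oxamate, a pyruvate analog that inhibits lactate dehydrogenase A (LDHA). The 4 groups of 3 libraries were vehicle-treated parental cells, oxamate-treated parental cells, vehicle-treated resistant cells and oxamate-treated resistant cells, and the sample labels name the vehicle groups untreated. The resistant cells were polyclonal and were selected by culture of MIAPaCa2 cells in 10 mM oxamate for 4 weeks, and both lines thus derive from 1 established cell line. The dose and duration of oxamate in the RNA-seq experiment were not given in the sources used here. No source says that the replicates came from separate cultures, and p-values therefore measure only the spread between these libraries, which may be technical.

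NF-κB is a family of dimers of RELA, RELB, REL and the products of NFKB1 and NFKB2, held inactive in the cytoplasm by IκB proteins such as those encoded by NFKBIA and NFKBIE. In the canonical pathway, signals from tumor necrosis factor, interleukin-1 or Toll-like receptors lead to the destruction of IκB proteins and to nuclear RELA and NFKB1 dimers, whereas in the noncanonical pathway the NFKB2 product is processed and pairs with RELB. The active dimers switch on their own brakes, including NFKBIA and TNFAIP3, together with survival genes, adhesion molecules and cytokines, and pancreatic cancer cells are known for lasting NF-κB activity. mRNA levels of the subunits do not measure nuclear NF-κB, which is controlled after translation.

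Levels are given as CPM, the reads of a gene divided by its library's TMM-scaled total and set to the same total in each library, as mean ± SD of 3 libraries, and changes as log2 fold changes ± SE from edgeR's quasi-likelihood test. A gene was called changed at a Benjamini-Hochberg adjusted p under 0.05 over all genes tested. The libraries held between 46698729 and 114222169 expected counts, every parental library being deeper than every resistant library, and the 3 counts taken as a floor corresponded to between 0.0283 and 0.0581 CPM, which covers counting error only. The sum of 4 nuclear-retained RNAs (MALAT1, NEAT1, KCNQ1OT1 and MIAT) set apart oxamate-treated parental replicate 3, at 1187 CPM beside 557 and 544 CPM, and vehicle-treated resistant replicate 3, at 1112 CPM beside 583 and 534 CPM. All 3 oxamate-treated resistant libraries were as rich, at 1238, 1080 and 1407 CPM. Vehicle-treated parental libraries were the poorest of all, at 321, 357 and 332 CPM. All 4 RNAs were called higher after oxamate in parental cells, against 28.3% of all genes. Of the 4, 3 were called higher in vehicle-treated resistant than parental cells, against 38.4% of all genes. Results that the 2 set-apart libraries decide are given without them as well, and below both libraries rich in nuclear-retained RNA means these 2. Leaving them out does not even out this RNA between the 4 groups. Its part in the results was not tested. The summed markers of the carcinoma line (KRT8, KRT18, KRT19 and VIM) lay between 12672 and 13781 CPM in parental and between 7734 and 8156 CPM in resistant libraries, all 4 being called lower in resistant cells by over 1.5-fold. Of the defining markers of other cells, CD3E had 0 counts and PTPRC, DCN and LUM at most 3 counts in any library. Other listed markers were present and moved with the groups: the summed fibroblast list lay between 695 and 952 CPM and was nearly all COL1A2, which was 0.42 ± 0.02 higher after oxamate in parental cells and differed by -0.25 between the oxamate-treated lines. The summed leukocyte list was at most 28.9 CPM, with CD14 0.87 ± 0.10 higher after oxamate in parental cells and LYZ differing by -0.51 ± 0.03 between the vehicle-treated lines. The summed endothelial list (PECAM1, VWF and CDH5) was at most 1.24 CPM, and PECAM1 had at most 11 counts. CDH5 was 0.82 ± 0.19 higher after oxamate in parental cells and 0.97 ± 0.19 higher in vehicle-treated resistant cells. VWF differed by -1.73 ± 0.57 between the vehicle-treated lines, but passed the filter only through parental libraries. The part of these markers in the results was not tested. LDHA, the gene of the inhibited enzyme, was measured at between 944 and 1701 CPM and was 0.62 ± 0.03 higher on the log2 scale after oxamate in parental cells and 0.34 ± 0.03 higher in resistant cells.

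The promoters are shown first because κB sites, the DNA element bound by NF-κB, are the letters through which a subunit can act on its own family. RefSeq promoter windows on GRCh38.p14 matched 7 of the 10 genes, in 11 windows of 250 bases before a transcription start (RELB, NFKBIE and LIF had no entry). The κB motif, searched by its name with 10 letters on both strands and with overlapping matches merged, was found in 6 of these 11 windows, belonging to 5 of the 7 genes (NFKB1, NFKB2, NFKBIA, TNFAIP3 and BIRC3). It was found in 9.961% of all 35116 windows and in at least 1 window of 11.796% of 27305 symbols, and 0.786% of windows held at least 2 matches. The windows of RELA and ICAM1 held none, which says only that these letters are not in these windows. Capitals mark the matches in the sequences, which are written 5′ to 3′ on the strand of the gene, for BIRC3 at chr11:102317234-102317449 (plus strand), TNFAIP3 at chr6:137867188-137867217 (plus), NFKBIA at chr14:35404750-35404999 (minus), NFKB1 at chr4:102501300-102501329 (plus) and NFKB2 at chr10:102395455-102395704 (plus).
BIRC3: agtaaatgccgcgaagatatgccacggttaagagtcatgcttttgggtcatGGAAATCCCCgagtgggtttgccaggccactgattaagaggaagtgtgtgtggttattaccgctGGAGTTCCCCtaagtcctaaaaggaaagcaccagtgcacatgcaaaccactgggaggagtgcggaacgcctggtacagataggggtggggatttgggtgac
TNFAIP3: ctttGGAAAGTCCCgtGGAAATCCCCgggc
NFKBIA: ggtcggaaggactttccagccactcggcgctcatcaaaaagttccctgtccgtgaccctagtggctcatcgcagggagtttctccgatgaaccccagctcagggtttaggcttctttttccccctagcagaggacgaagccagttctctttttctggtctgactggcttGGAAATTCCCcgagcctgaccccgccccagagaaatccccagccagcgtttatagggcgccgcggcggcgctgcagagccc
NFKB1: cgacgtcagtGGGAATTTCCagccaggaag
NFKB2: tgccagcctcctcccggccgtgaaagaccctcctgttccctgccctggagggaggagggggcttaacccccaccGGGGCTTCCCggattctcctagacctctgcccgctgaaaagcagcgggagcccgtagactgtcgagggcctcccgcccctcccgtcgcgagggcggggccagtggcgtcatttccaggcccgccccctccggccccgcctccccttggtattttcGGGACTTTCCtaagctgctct
Counted back from the RefSeq start, the BIRC3 matches began 199 and 135 bases, the TNFAIP3 matches 67 and 55 bases, the NFKBIA match 81 bases and the NFKB1 match 49 bases before it. The window shown for NFKB2 held matches beginning 176 and 21 bases before its start, and the window of another NFKB2 start held matches 107 and 78 bases before it. Starts differ between annotations, and GENCODE exons of any gene cover part of these windows. They cover 241 of the 250 bases of the NFKB1 window with the match, and 71 for TNFAIP3. All 250 bases are covered for ICAM1 and for the NFKB2 window not shown. The TNFAIP3 stretch begins at the GENCODE start of the gene, so that both its matches lie within the gene by that annotation. The 2 NFKB2 windows with matches also lie within NFKB2 by GENCODE, the one shown outside its exons. A match is a description of the letters and not evidence that the site was bound in these cells.

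The comparison of resistant with parental cells asked how the resting state of the pathway differed after selection in oxamate. All 10 genes were called higher in vehicle-treated resistant than in vehicle-treated parental cells, by between 0.18 (RELA) and 1.84 (BIRC3) on the log2 scale, and 5 of them, RELB, NFKB2, TNFAIP3, BIRC3 and ICAM1, were higher by over 1.5-fold. Of all genes tested, 75.7% were called in this comparison and 38.4% were called higher, while 17.0% were called higher by over 1.5-fold. The median log2 fold change of the 10 genes was 0.62, beside 0.03 over all genes tested. Because the 10 genes were chosen with earlier results known, these contrasts are descriptions. ICAM1 passed the filter on low counts only through the resistant libraries, so that the filter favoured a difference between the lines for this gene. The other 9 genes were all called higher, with 4 above 1.5-fold and a median of 0.56. In oxamate-treated cells, 9 of the 10 genes were called higher in resistant cells and RELA was called lower, against 80.3% of all genes called, 40.6% higher and 39.7% lower. The same comparison left 6 of the 10 genes higher by over 1.5-fold, RELB, NFKB1, NFKBIE, TNFAIP3, BIRC3 and ICAM1, against 22.7% of all genes, and the median was 0.68 beside 0.01. Without ICAM1, 8 of 9 were higher, 5 of them by over 1.5-fold, and the median was 0.66. The libraries of the 2 lines did not overlap for any of the 10 genes in either comparison, as was the case for 77.6% of all genes with vehicle and 81.2% with oxamate. The depth and the carcinoma markers moved with the line, and their part in these differences was not tested. In cultures measured in bulk, more cells expressing a gene and more RNA of it per cell cannot be told apart.

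The oxamate responses were smaller in size. In parental cells 4 of the 10 genes were called higher after oxamate (RELA, NFKB2, NFKBIA and LIF) and 4 lower (RELB, NFKB1, TNFAIP3 and BIRC3), while of all genes 58.7% were called, 28.3% higher and 30.4% lower. The values ranged between -0.41 (NFKB1) and 0.30 (RELA), so that 0 of the 10 passed 1.5-fold, against 9.38% of all genes, and the median was -0.16 beside 0.00 over all genes. In resistant cells 3 of the 10 were called, all lower (RELB, NFKB1 and TNFAIP3), with 21.5% of all genes called and 12.5% called lower, and 1.32% of all genes but 0 of the 10 passed 1.5-fold. An unadjusted p under 0.05 was reached there by 4 of the 10, the fourth being RELA, and DESeq2 and limma-voom called the same 3. The replicates of oxamate and vehicle did not overlap for 8 of the 10 genes in parental cells, against 61.5% of all genes, and for 4 of the 10 in resistant cells, against 41.0%. These 4 comparisons share their libraries in pairs, and each gene's own values therefore follow side by side.

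**Figure D1:**
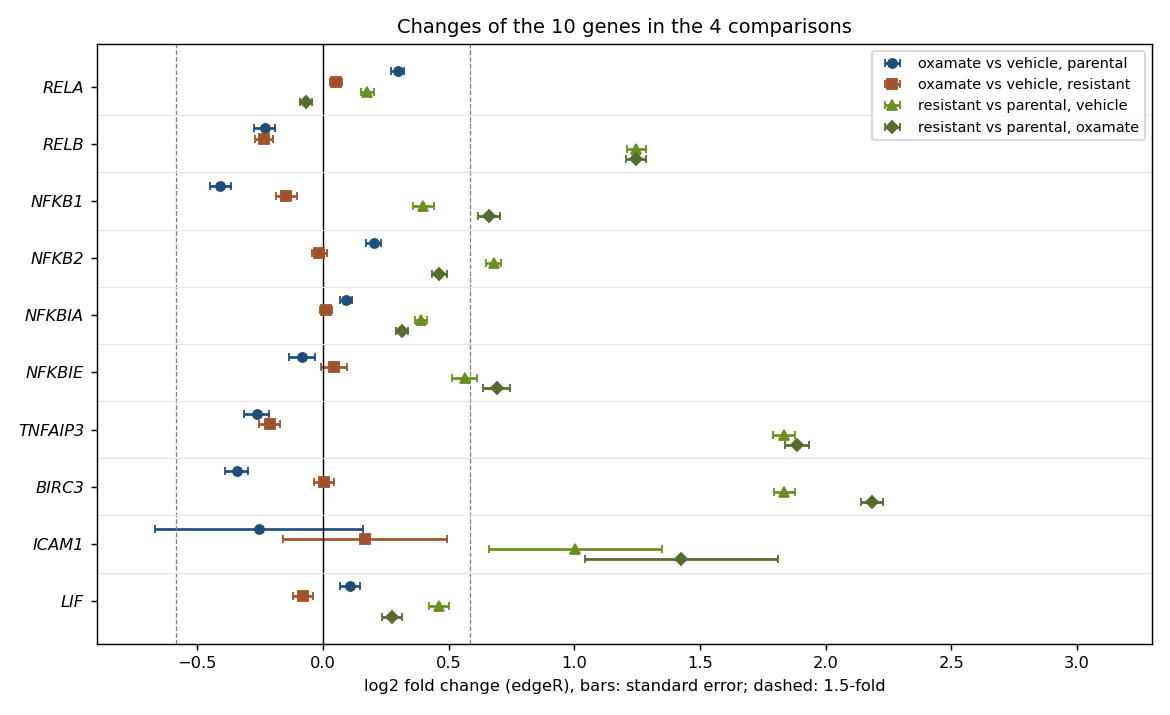
Log2 fold changes from edgeR (x axis) of the 10 genes (rows) in the 4 comparisons, with bars for the SE and dashed lines at 1.5-fold. The resistant-against-parental symbols of TNFAIP3 and BIRC3 lie between 1.83 and 2.18, whereas the oxamate-against-vehicle symbols of all 10 genes lie between -0.41 and 0.30.

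RELA (chr11:65653596-65663094, minus strand; GENCODE 29 on GRCh38 here and for the other genes) encodes the activating subunit of the canonical pathway. Vehicle-treated parental libraries held 82.2, 81.4 and 79.9 CPM and oxamate-treated parental libraries 99.0, 101 and 98.8 CPM. Vehicle-treated resistant libraries held 91.9, 92.6 and 90.9 CPM and oxamate-treated resistant libraries 96.2, 93.2 and 96.2 CPM. The 4 groups did not overlap, with oxamate-treated parental cells highest and vehicle-treated parental cells lowest, and the highest mean was only 1.23 times the lowest. Oxamate raised RELA by 0.30 ± 0.02 in parental cells (adjusted p = 5.01e-08, edgeR), whereas the change of 0.05 ± 0.02 in resistant cells was not called (adjusted p = 0.137). It was called with upper-quartile factors (0.08, adjusted p = 0.0339) and with library totals (0.08, adjusted p = 0.0207). Less the median of all genes tested, the value was 0.05 in each of these fits. Vehicle-treated resistant cells were 0.18 ± 0.02 above parental cells (adjusted p = 6.50e-06). The difference of -0.07 ± 0.02 between oxamate-treated lines (adjusted p = 0.0198) was positive with upper-quartile factors, at 0.02, and with library size alone, at 0.26, and was not called without oxamate-treated parental replicate 2 (-0.05) or resistant replicate 2 (-0.05). These 2 scalings put the median of all genes at 0.10 and 0.34, and relative to the median RELA was -0.08 under both and in the main fit.

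RELB (chr19:45001430-45038198, plus strand) encodes the subunit that pairs with the processed NFKB2 product, and it was the subunit gene with the largest difference between the lines. Its level was 21.4, 20.5 and 20.6 CPM in vehicle-treated parental libraries and 17.8, 17.8 and 17.7 CPM in oxamate-treated ones. In resistant cells it was 47.8, 52.3 and 48.4 CPM with vehicle and 42.9, 42.8 and 40.7 CPM with oxamate. Every resistant library was therefore above every parental library, and within each line every oxamate-treated library was below every vehicle-treated one. RELB was 1.25 ± 0.04 higher in resistant cells with vehicle (2.37-fold, adjusted p = 1.13e-13) and 1.25 ± 0.04 higher with oxamate (2.37-fold, adjusted p = 1.03e-13). It fell by 0.23 ± 0.04 after oxamate in parental cells (adjusted p = 0.000136) and by 0.23 ± 0.04 in resistant cells (adjusted p = 0.000473).

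NFKB1 (chr4:102501329-102617302, plus strand) encodes the precursor of p50, the usual partner of RELA. Parental libraries held 24.9, 25.7 and 26.7 CPM with vehicle and 20.2, 19.8 and 18.3 CPM with oxamate, whereas resistant libraries held 33.3, 34.9 and 33.7 CPM and 29.8, 31.7 and 30.6 CPM. The order of the 4 groups was that of RELB, again without overlap. NFKB1 fell by 0.41 ± 0.04 after oxamate in parental cells (adjusted p = 7.53e-07), the largest decrease among the 10 genes in this comparison. The decrease of 0.15 ± 0.04 in resistant cells (adjusted p = 0.0209) was not called without vehicle-treated resistant replicate 2 (-0.13), oxamate-treated replicate 1 (-0.13) or oxamate-treated replicate 3 (-0.14). Resistant cells were higher by 0.40 ± 0.04 with vehicle (adjusted p = 2.21e-07) and by 0.66 ± 0.04 with oxamate (adjusted p = 6.42e-10).

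NFKB2 (chr10:102394110-102402529, plus strand) encodes p100, the precursor of p52, and is itself a target of NF-κB. Vehicle-treated parental libraries held 117, 114 and 112 CPM, and oxamate-treated ones held 129, 128 and 137 CPM. Resistant libraries lay at 183, 181 and 184 CPM with vehicle and at 179.7, 178 and 185 CPM with oxamate. The resistant groups overlapped each other and stood above the parental groups, which were separate. NFKB2 was 0.68 ± 0.03 higher in resistant cells with vehicle (1.60-fold, adjusted p = 6.09e-12) and 0.46 ± 0.03 higher with oxamate (1.38-fold, adjusted p = 3.15e-10). Oxamate raised it by 0.20 ± 0.03 in parental cells (adjusted p = 2.09e-05), opposite in sign to NFKB1 in the same libraries, and the value in resistant cells was -0.01 ± 0.03 (adjusted p = 0.748).

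**Figure D2:**
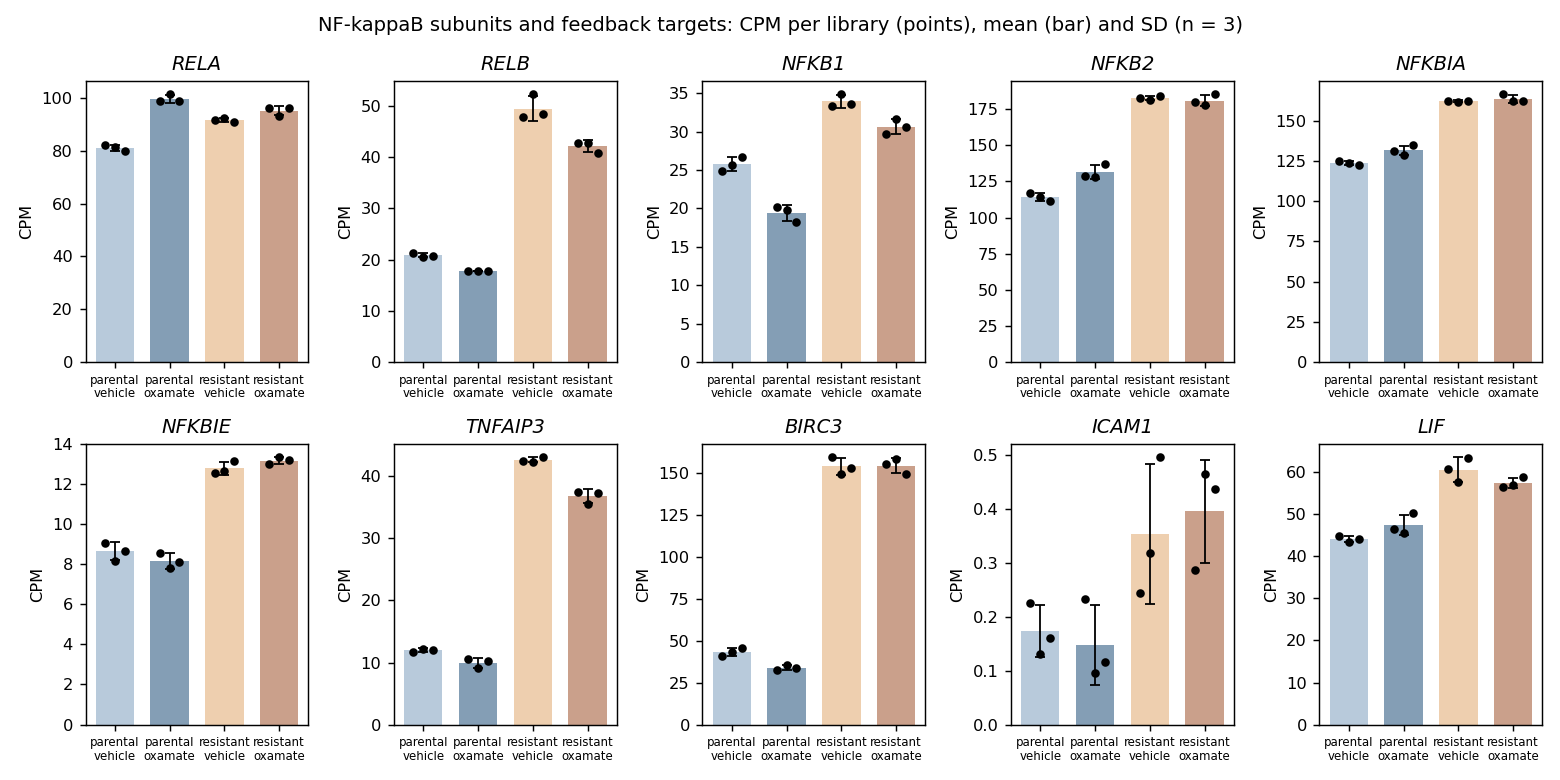
CPM (y axis, linear from 0) of each of the 10 genes in the 4 groups, with points for libraries, bars for means and error bars for the SD of 3 libraries. TNFAIP3 and BIRC3 show the widest steps between parental and resistant cells, RELA stays between 79.9 and 101 CPM in all 12 libraries, and ICAM1 stays under 0.5 CPM.

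NFKBIA and NFKBIE encode the cytoplasmic inhibitors IκBα and IκBε. NFKBIA (chr14:35401511-35404749, minus strand), which NF-κB induces within its fastest feedback loop, was at 125, 124 and 122 CPM with vehicle and at 131, 129 and 135 CPM with oxamate in parental cells. In resistant cells it was at 163, 162 and 163 CPM and at 167, 162 and 162 CPM. The resistant groups overlapped and the other neighbours in this order did not. NFKBIA was 0.39 ± 0.02 higher in resistant cells with vehicle (1.31-fold, adjusted p = 4.25e-10) and 0.31 ± 0.02 higher with oxamate (adjusted p = 3.76e-09), which placed it at percentiles 74.1 and 66.0 of all genes tested. Its increase of 0.09 ± 0.02 after oxamate in parental cells (adjusted p = 0.00411) was 0.02 and not called when library totals replaced the TMM-scaled sizes, and in resistant cells the value was 0.01 ± 0.02 (adjusted p = 0.748). Set against the median of all genes tested, the parental value was 0.09 in both fits. NFKBIE (chr6:44258166-44265788, minus strand) was expressed at 9.07, 8.18 and 8.65 CPM and at 8.55, 7.79 and 8.11 CPM in parental cells with vehicle and oxamate, which overlapped. The resistant libraries, at 12.5, 12.6 and 13.1 CPM with vehicle and 13.0, 13.3 and 13.2 CPM with oxamate, also overlapped each other but were all higher. NFKBIE was 0.56 ± 0.05 higher in resistant cells with vehicle (1.48-fold, adjusted p = 4.48e-08) and 0.69 ± 0.05 higher with oxamate (1.61-fold, adjusted p = 3.98e-09), and it was not called after oxamate in parental (-0.08 ± 0.05, adjusted p = 0.188) or resistant cells (0.04 ± 0.05, adjusted p = 0.566). With library totals NFKBIE was called lower after oxamate in parental cells (-0.16, adjusted p = 0.0177). Measured from the median of all genes, it was -0.09 both there and in the main fit.

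TNFAIP3 (chr6:137867188-137883312, plus strand) encodes A20, a ubiquitin-editing enzyme that shuts down signalling above the IκB kinase. It was at 11.7, 12.2 and 12.0 CPM in vehicle-treated and at 10.5, 9.04 and 10.3 CPM in oxamate-treated parental libraries. It reached 42.5, 42.3 and 43.1 CPM in vehicle-treated and 37.5, 35.5 and 37.4 CPM in oxamate-treated resistant libraries. No groups overlapped, and every resistant library was far above every parental one. The difference between the lines was 1.83 ± 0.04 with vehicle (3.56-fold, adjusted p = 9.14e-15) and 1.89 ± 0.05 with oxamate (3.69-fold, adjusted p = 7.05e-15), at percentiles 97.4 and 95.9 of all genes. Like RELB, TNFAIP3 fell after oxamate in both lines, by 0.26 ± 0.05 in parental (adjusted p = 0.000295) and by 0.21 ± 0.04 in resistant cells (adjusted p = 0.00235).

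BIRC3 (chr11:102317450-102339403, plus strand) encodes cIAP2, a ubiquitin ligase of the tumor necrosis factor receptor complex that restrains cell death and is induced by NF-κB. Parental libraries contained 40.7, 43.3 and 45.9 CPM with vehicle and 32.8, 35.7 and 33.7 CPM with oxamate. Resistant libraries contained 159.7, 149.5 and 153 CPM with vehicle and 155, 159 and 149.9 CPM with oxamate. The parental groups were separate, the resistant groups overlapped, and the difference between the lines was as large as that of TNFAIP3 with vehicle and larger with oxamate. It was 1.84 ± 0.04 higher in resistant cells with vehicle (3.57-fold, adjusted p = 5.11e-15) and 2.18 ± 0.04 higher with oxamate (4.54-fold, adjusted p = 6.03e-16), at percentiles 97.4 and 97.1. Oxamate lowered BIRC3 by 0.34 ± 0.04 in parental cells (adjusted p = 7.93e-06), whereas the value in resistant cells was 0.00 ± 0.04 (adjusted p = 0.949). BIRC2, its neighbour and paralog, was looked up after its values were seen, and was only 0.19 and 0.41 higher in resistant cells with vehicle and oxamate.

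ICAM1 (chr19:10270835-10286615, plus strand) encodes the adhesion molecule through which leukocytes bind to cells, and it was the rarest of the 10 mRNAs. Vehicle-treated parental libraries held between 10 and 24 counts and oxamate-treated ones between 5 and 13, whereas vehicle-treated resistant libraries held between 14 and 29 and oxamate-treated ones between 15 and 26. These counts corresponded to 0.226, 0.132 and 0.161 CPM and to 0.232, 0.0952 and 0.116 CPM in parental cells with vehicle and oxamate. They corresponded to 0.244, 0.319 and 0.496 CPM and to 0.287, 0.465 and 0.436 CPM in resistant cells. All libraries were above the floor of 3 counts, the groups of 1 line overlapped, and the parental libraries all lay below the resistant ones. The filter asked for about 0.174 CPM in at least 3 libraries, which 6 resistant but only 2 parental libraries reached, so that the differences between the lines are descriptions of a gene kept because it was higher in resistant cells. The difference of 1.42 ± 0.38 with oxamate was called (adjusted p = 0.00296), and so was that of 1.00 ± 0.34 with vehicle (adjusted p = 0.0152), but the latter was not called without vehicle-treated parental replicate 2 (0.82), without vehicle-treated resistant replicate 3 (0.68) or without both libraries rich in nuclear-retained RNA (0.68). No oxamate response was detectable at this depth, with -0.25 ± 0.41 in parental and 0.17 ± 0.33 in resistant cells. ICAM1 shares 25.1% of its exon bases with the antisense gene AC011511.5, and because use of strand in the counting was not given in the sources used here, reads from them cannot be told apart.

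LIF (chr22:30240447-30246851, minus strand) encodes leukemia inhibitory factor, a secreted cytokine of the interleukin-6 family. It was measured at 44.8, 43.3 and 44.0 CPM and at 46.5, 45.6 and 50.2 CPM in parental cells with vehicle and oxamate, and at 60.8, 57.6 and 63.5 CPM and at 56.6, 56.9 and 58.8 CPM in resistant cells. The resistant groups overlapped and lay above the parental groups. LIF was 0.46 ± 0.04 higher in resistant cells with vehicle (adjusted p = 2.50e-08) and 0.27 ± 0.04 higher with oxamate (adjusted p = 1.02e-05). The increase of 0.11 ± 0.04 after oxamate in parental cells (adjusted p = 0.0274) rested on single libraries, since it was not called without vehicle-treated parental replicate 2 (0.10), vehicle-treated parental replicate 3 (0.11) or oxamate-treated parental replicate 3 (0.06). It was not called with library totals either (0.04, adjusted p = 0.539). Its value relative to the median of all genes was 0.11 there and in the main fit. The value in resistant cells was -0.08 ± 0.04 (adjusted p = 0.170). Antisense genes LIF-AS1 and AC004264.1 share 2.32% and 4.41% of its exon bases, with the same limit on strand.

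Per length, NFKBIA was the most abundant of the 10 mRNAs in all 4 groups, with between 65.1 CPM per kb of exon in vehicle-treated parental and 86.2 CPM per kb in oxamate-treated resistant cells. NFKB2 followed with between 31.0 and 49.6 CPM per kb, and RELA with between 24.0 and 29.4 CPM per kb. BIRC3 stood at 6.27 CPM per kb, below LIF (11.1) and RELB (9.07), in vehicle-treated parental cells, and at 22.3 CPM per kb, above LIF (15.3) and overlapping RELB (21.5), in vehicle-treated resistant cells. TNFAIP3 moved in the same comparison from 2.53 CPM per kb, below NFKBIE (3.34) and NFKB1 (4.67), to 9.00 CPM per kb, above NFKBIE (4.95) and NFKB1 (6.15). ICAM1 was lowest in every group, at no more than 0.122 CPM per kb.

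The 10 genes did not move by a common factor, as ratios of counts within a library show without any scaling between libraries. The ratio of BIRC3 to NFKBIA was 0.350 ± 0.025 in vehicle-treated parental, 0.259 ± 0.016 in oxamate-treated parental, 0.949 ± 0.029 in vehicle-treated resistant and 0.944 ± 0.029 in oxamate-treated resistant cells (n = 3). The ratio of TNFAIP3 to NFKBIA went from 0.0967 ± 0.0031 to 0.263 ± 0.002 between the vehicle-treated lines, and with oxamate from 0.0754 ± 0.0049 to 0.225 ± 0.006. Both feedback targets were thus higher relative to the third in every resistant library. RELB relative to RELA was 0.257 ± 0.004 in vehicle-treated parental and 0.539 ± 0.023 in vehicle-treated resistant cells, and oxamate was accompanied by lower ratios in both lines, 0.178 ± 0.002 and 0.443 ± 0.018. RELB relative to NFKB2, its usual partner, was 0.183 ± 0.002 and 0.135 ± 0.005 in parental cells and 0.271 ± 0.015 and 0.233 ± 0.011 in resistant cells. NFKB2 relative to NFKB1 was 4.43 ± 0.25 with vehicle and 6.77 ± 0.62 with oxamate in parental cells, the libraries not overlapping, and was 5.39 ± 0.16 and 5.90 ± 0.25 in resistant cells. These ratios are given as descriptions without a test.

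**Figure D3:**
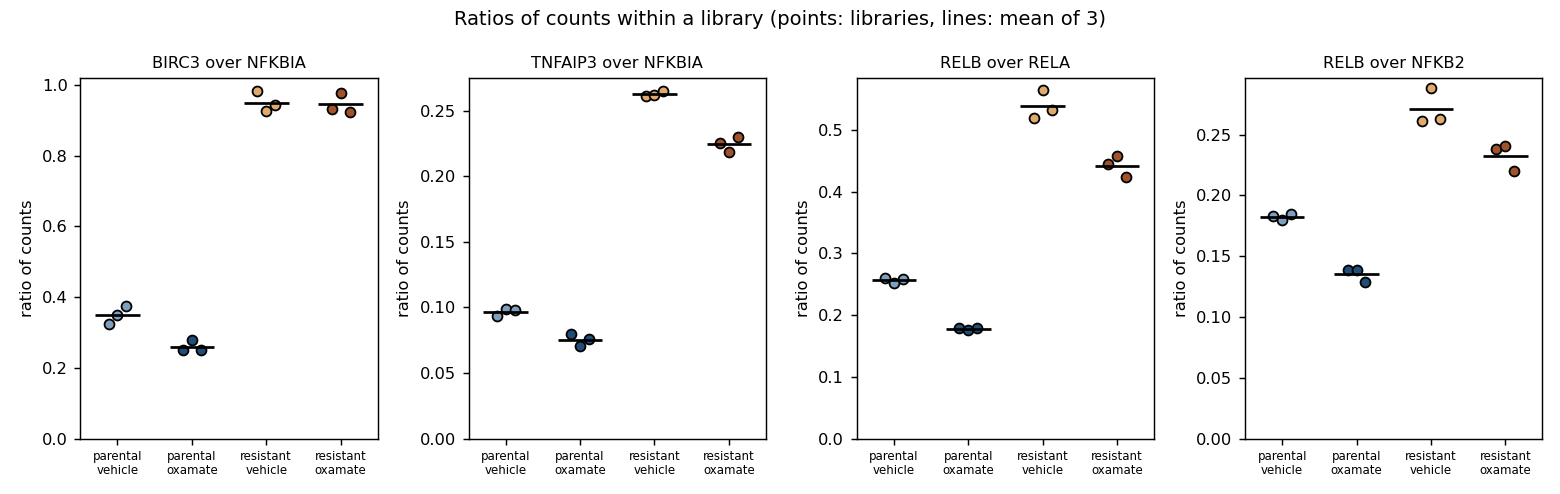
Ratios of counts within each library (y axis, linear from 0) for 4 pairs of genes in the 4 groups, with points for libraries and lines for the mean of 3. BIRC3 over NFKBIA lies between 0.250 and 0.375 in parental and between 0.923 and 0.981 in resistant libraries, and RELB over RELA lies lower with oxamate than with vehicle in both lines.

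Whether oxamate acted differently in the lines was tested as the difference between its log2 fold changes, resistant minus parental. This difference was called for 5 of the 10 genes, 2 with a positive and 3 with a negative sign, against 44.2% of all genes tested, 22.7% positive and 21.4% negative. It passed 1.5-fold for 0 of the 10 and for 7.52% of all genes. RELA (-0.24 ± 0.03, adjusted p = 3.59e-05), NFKB2 (-0.22 ± 0.04, adjusted p = 0.000454) and LIF (-0.19 ± 0.06, adjusted p = 0.0127) were the 3 for which the parental response was the more positive. BIRC3 (0.35 ± 0.06, adjusted p = 0.000214) and NFKB1 (0.26 ± 0.06, adjusted p = 0.00208) were those that fell more in parental cells. For RELB the difference was -0.00 ± 0.06 (adjusted p = 0.992) and for TNFAIP3 0.05 ± 0.06 (adjusted p = 0.547), and both genes fell in both lines. The remaining values were -0.08 ± 0.03 for NFKBIA, 0.13 ± 0.07 for NFKBIE and 0.42 ± 0.53 for ICAM1, none of them called, although that of NFKBIE was called with library totals (0.23, adjusted p = 0.0167). Relative to the median of all genes, the NFKBIE difference was 0.13 in both fits. The difference for LIF was -0.11 and not called without both libraries rich in nuclear-retained RNA.

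**Figure D4:**
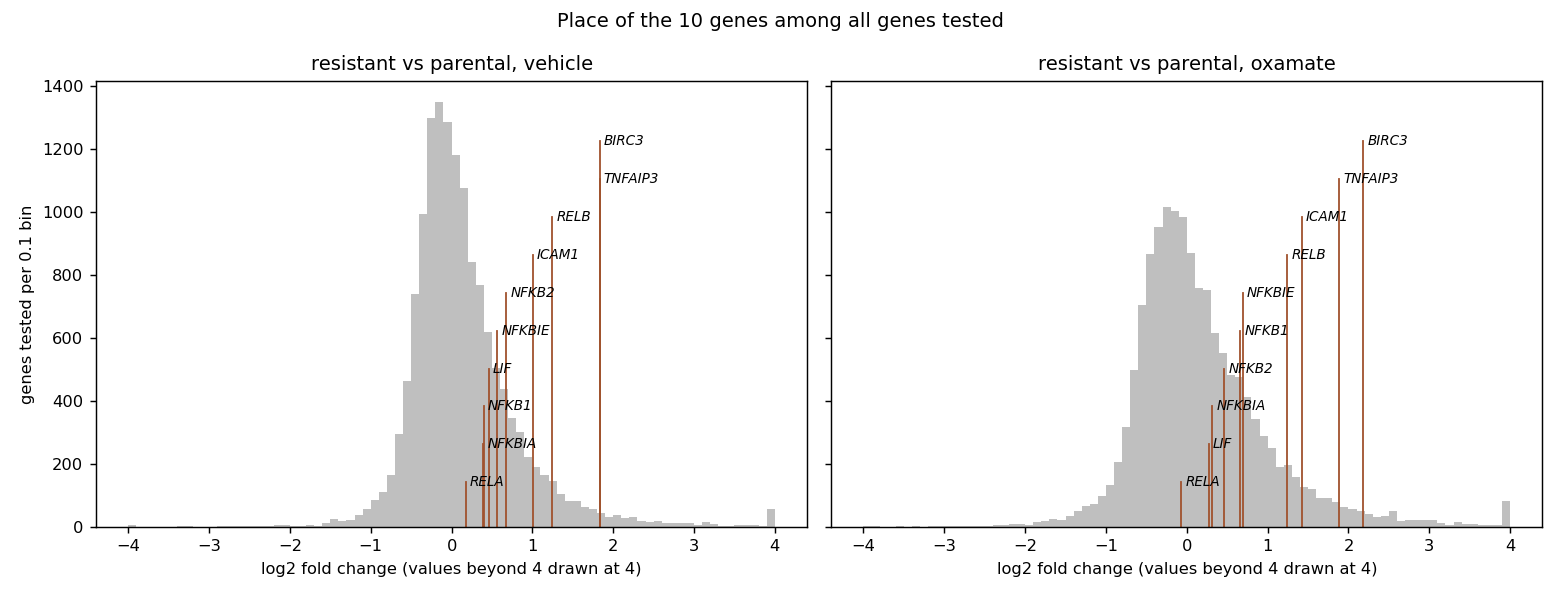
Histograms of log2 fold changes between resistant and parental cells over the 14582 genes tested (x axis, values beyond 4 drawn at 4; y axis, genes per bin), with vehicle and with oxamate. Vertical lines mark the 10 genes, their heights only separating the names: BIRC3 and TNFAIP3 lie at percentiles between 95.9 and 97.4, and RELA lies at percentiles 61.7 and 44.7.

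Upstream of the 10 genes, 12 of 18 listed ligands and receptors could be tested. IL1B and TLR2 passed the filter only through resistant libraries, and of the other 10, 6 were called higher and 4 lower in vehicle-treated resistant cells, against 75.7% of all genes called and 38.4% called higher. LTB, which encodes lymphotoxin beta, a ligand of the noncanonical pathway, was 1.22 ± 0.12 higher (adjusted p = 1.38e-07), whereas TNFRSF1A, the main receptor for tumor necrosis factor, differed by -0.36 ± 0.02 (adjusted p = 1.83e-09). The receptor gene IL1R1 was 0.45 ± 0.03 higher (adjusted p = 1.94e-09). With oxamate 5 of these 10 were called higher and 5 lower in resistant cells, against 40.6% and 39.7% of all genes. TNF itself rose by 0.51 ± 0.09 after oxamate in parental cells (adjusted p = 0.000182), where 3 of the 12 rose and 4 fell against 28.3% and 30.4% of all genes, and its response differed between the lines by -0.67 ± 0.13 (adjusted p = 0.000672). In resistant cells 3 of the 12 were called after oxamate, all lower, against 12.5% of all genes called lower, including LTBR (-0.24 ± 0.03) and TNFRSF12A (-0.34 ± 0.04), receptors that feed the noncanonical pathway.

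All 25 listed adaptors and kinases were tested. In vehicle-treated resistant cells 19 were called higher and 2 lower, with 3 higher by over 1.5-fold, against 75.7% of all genes called, 38.4% called higher and 17.0% higher by over 1.5-fold. The median was 0.22 beside 0.03 for all genes. RIPK1, a kinase and scaffold of the tumor necrosis factor receptor complex, stood out: 9.35 ± 0.37 CPM in vehicle-treated parental, 4.74 ± 0.10 CPM in oxamate-treated parental, 23.7 ± 0.4 CPM in vehicle-treated resistant and 25.9 ± 0.3 CPM in oxamate-treated resistant cells. It fell by 0.97 ± 0.05 after oxamate in parental cells (adjusted p = 2.02e-10), and the response differed between the lines by 1.10 ± 0.06 (adjusted p = 2.91e-09). IKBKE, an IκB kinase relative, was 1.59 ± 0.08 higher in vehicle-treated resistant cells (adjusted p = 3.44e-11), and CHUK, which encodes the kinase IKKα, differed by -0.30 ± 0.05 (adjusted p = 2.30e-05). Oxamate was followed by lower levels of 14 of the 25 and higher levels of 3 in parental cells, and by lower levels of 1 and higher levels of 5 in resistant cells. Of all genes, 30.4% were lower and 28.3% higher in parental cells, and 21.5% were called in resistant cells. TRADD, an adaptor of the tumor necrosis factor receptor, was among those that rose in both, by 0.40 ± 0.03 and 0.13 ± 0.03. The response was called different for 15 of the 25, in 13 of them more positive in resistant cells, against 44.2% and 22.7% of all genes, with a median of 0.18 beside -0.01 for all genes.

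Of the 5 other subunit and IκB genes, REL, NFKBIZ and NFKBID were called higher and NFKBIB and BCL3 lower in resistant cells, both with vehicle and with oxamate, where 75.7% and 80.3% of all genes were called. REL, the remaining activating subunit, was 0.78 ± 0.05 higher with vehicle (adjusted p = 1.14e-09) and 0.91 ± 0.05 higher with oxamate (adjusted p = 1.57e-10). NFKBIZ, an atypical nuclear IκB, was 0.94 ± 0.05 and 0.83 ± 0.06 higher. BCL3, a nuclear IκB that binds p50 and p52, rose by 0.26 ± 0.03 after oxamate in parental cells (adjusted p = 9.51e-06), and its response differed between the lines by -0.28 ± 0.05 (adjusted p = 0.000255). NFKBIB, which encodes IκBβ, fell by 0.26 ± 0.03 in resistant cells after oxamate (adjusted p = 9.77e-05).

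Among 10 tested of 11 other negative regulators, 6 were called higher and 3 lower in vehicle-treated resistant cells, against 75.7% of all genes called and 38.4% called higher. N4BP1, an inhibitor of the kinase complex that activates NF-κB, was 0.73 ± 0.03 higher with vehicle and 1.54 ± 0.04 higher with oxamate, and it fell by 0.72 ± 0.04 after oxamate in parental cells (adjusted p = 5.27e-10). ZC3H12A, which encodes the ribonuclease Regnase-1, was 1.17 ± 0.06 higher with vehicle (adjusted p = 4.13e-11), and CYLD, a deubiquitinase, 0.95 ± 0.04 higher with oxamate. TNIP1, a partner of A20, rose by 0.48 ± 0.02 after oxamate in parental cells (adjusted p = 3.37e-10) and by 0.07 ± 0.02 in resistant cells, a difference of -0.41 ± 0.03 (adjusted p = 2.27e-07). The 5 called lower with oxamate in resistant against parental cells included PDLIM2 (-0.65 ± 0.04) and TAX1BP1 (-0.44 ± 0.03), and 5 were called higher. Of all genes, 39.7% were called lower and 40.6% higher.

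Of 28 other listed NF-κB targets, 22 were tested, of which CXCL10, CSF2 and MMP9 passed the filter through libraries of 1 line only. MMP9 passed only through the oxamate-treated parental libraries, with means of 0.351 CPM there and 0.154 CPM in vehicle-treated parental cells. Of the other 19, 14 were called higher and 3 lower in vehicle-treated resistant cells, with 11 higher by over 1.5-fold and a median of 0.88 beside 0.03, against 75.7% of all genes called, 38.4% higher and 17.0% higher by over 1.5-fold. CX3CL1, which encodes the chemokine fractalkine, was 1.97 ± 0.05 higher (adjusted p = 2.65e-14), and C3, the central complement component, 1.45 ± 0.04 higher (adjusted p = 3.04e-14). GADD45B, a stress-response target, differed in the opposite direction, by -1.44 ± 0.03 (adjusted p = 1.27e-15), as did the survival gene BCL2L1 by -0.62 ± 0.03 (adjusted p = 1.33e-11). With oxamate the counts were 12 higher and 5 lower of 19 and the median was 0.45, against 40.6% and 39.7% of all genes, TNFAIP2 being 1.00 ± 0.03 higher and GADD45B differing by -1.90 ± 0.03. After oxamate in parental cells, 11 of the 19 were called, all higher, including SDC4 (0.40 ± 0.02) and C3 (0.60 ± 0.04). Of all genes, 58.7% were called and 28.3% called higher. Over the 22 the count was 12, but MMP9 was kept because it was high in this group. In resistant cells 2 rose and 7 fell, against 21.5% of all genes called and 12.5% called lower. Besides these 12, CSF2 reached an unadjusted p under 0.05 in parental cells by edgeR (0.70 ± 0.29). The response was called different for 13 of the 22, all within the 19 and each more positive in parental cells. Of all genes, 44.2% were called and 21.4% had this sign. The median was -0.28 over the 19 and -0.34 over the 22, beside -0.01 for all genes. CXCL1 (-0.47 ± 0.04, adjusted p = 3.51e-07) and SOD2 (-0.36 ± 0.03, adjusted p = 3.99e-07) had the smallest p.

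**Figure D5:**
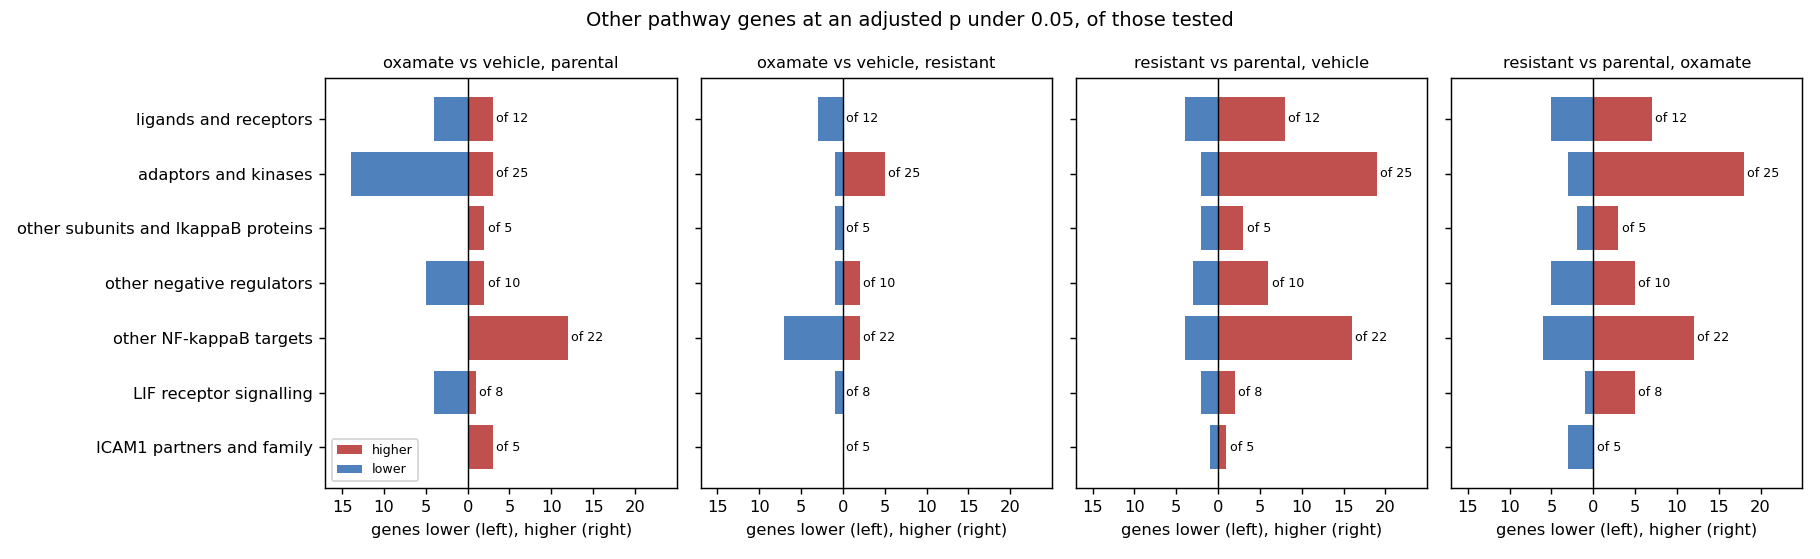
Numbers of genes called lower (left of 0) and higher (right of 0) at an adjusted p under 0.05 in 7 lists of other pathway genes (rows), for the 4 comparisons (panels), with the number tested beside each bar. The 22 other NF-κB targets show 12 higher after oxamate in parental cells, and 2 higher and 7 lower in resistant cells. Of the 19 that did not pass the filter through 1 line only, 11 were higher in parental cells. The panels comparing the lines also count genes kept through 1 line only. With vehicle they show 8 of 12 ligands and receptors and 16 of 22 targets higher, beside 6 of 10 and 14 of 19 without such genes. With oxamate they show 7 and 12 higher, beside 5 and 12 without such genes.

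Of 8 genes of LIF receptor signalling, 2 were called higher and 2 lower in vehicle-treated resistant cells, against 75.7% of all genes called, the feedback inhibitor SOCS3 being 0.26 ± 0.04 higher and the kinase gene TYK2 differing by -0.19 ± 0.03. LIFR, the receptor subunit that binds LIF, was 0.27 ± 0.05 higher in resistant cells with oxamate (adjusted p = 4.23e-05). There 5 of the 8 were called higher and 1 lower, against 40.6% and 39.7% of all genes. After oxamate in parental cells 1 rose and 4 fell, against 28.3% and 30.4% of all genes, PTPN11 (-0.25 ± 0.03) and JAK2 (-0.26 ± 0.06) being among those that fell. In resistant cells 1 fell, against 12.5% of all genes. Of 7 partners and relatives of ICAM1, 5 were tested, and in parental cells ICAM5 rose by 0.53 ± 0.05 (adjusted p = 3.52e-07) and ICAM4 by 0.99 ± 0.31 (adjusted p = 0.0117) after oxamate, as did the integrin gene ITGAM (0.67 ± 0.21, adjusted p = 0.0126). In vehicle-treated resistant cells ITGAM was 1.00 ± 0.20 higher (adjusted p = 0.000353) and ITGB2, its partner chain, differed by -0.56 ± 0.13 (adjusted p = 0.00139). With oxamate 3 were called, all lower in resistant cells, namely ICAM5 (-0.56 ± 0.05), ICAM3 (-0.46 ± 0.07) and ITGB2 (-0.76 ± 0.14). Of all genes, 80.3% were called there and 39.7% called lower.

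Across the 12 libraries the genes most like each of the 10, by Pearson's r of log2 CPM, were KANK1 for BIRC3 (0.999), RASAL2 for TNFAIP3 (0.998), TPBG for NFKBIA (0.998), LBX2-AS1 for RELB (0.997), IGF2 for NFKB2 (0.997), RTKN for NFKBIE (0.995), WWC2 for NFKB1 (0.993), TMEM132A for RELA (0.987), SLC12A7 for LIF (0.984) and MLNR for ICAM1 (0.943). Among the 10 themselves RELB and TNFAIP3 were the closest pair (0.995), and RELA and NFKB1 were the pair with the lowest value (-0.26). These values are descriptions over 12 libraries that share the split between lines and depths, which most genes tested follow.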

How the data were processed

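Poly(A) RNA was selected on oligo(dT) beads and sequenced. The authors' methods give alignment to a UCSC transcript set by Bowtie2 and estimation of expression by RSEM (Bowtie2 2.1.0, RSEM 1.2.15 and hg38 in the submitters' processing notes). The methods also describe STAR and featureCounts. The deposited values are RSEM expected counts of 26475 gene symbols in 12 libraries, without normalization. Of these values 11.6% are not whole numbers, as reads that match transcripts of more than 1 gene are divided between the genes. These expected counts were made whole by rounding and tested with edgeR 4.0.16 in R 4.3.3 (filterByExpr defaults, TMM, glmQLFit and glmQLFTest on 4 group means, all 12 libraries). Depth ran from 46698729 to 114222169 counts per library. The SE is the log2 fold change divided by the root of F. CPM used TMM-scaled library sizes, and correlations used log2 CPM with a prior count of 2. The tests were tried on simulated data first.

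The 10 genes and all gene lists were chosen with earlier results of these data known. Genes named were the 10, LDHA, MALAT1, up to 2 genes per direction with the smallest p in each list and comparison, and the most similar gene of each of the 10. BIRC2, NFKBID, CSF2, the cell type markers and the nuclear-retained RNAs lie outside this rule. Positions, exon lengths and overlaps came from GENCODE 29 and promoters from RefSeq. Alternatives were other scalings, filters, unrounded counts, a replicate block, DESeq2 1.42.0, limma-voom (limma 3.58.1), fits on 6 libraries, other thresholds, each replicate left out, and both libraries rich in nuclear-retained RNA left out. Chromatin accessibility and metabolites were not analysed here.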

Additional observations from a re-analysis of the deposited data

Results flagged for a closer look

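For 5 of the 10 genes the response to oxamate differed between resistant and parental cells by edgeR's test of the difference itself (resistant minus parental, log2 scale). The differences were -0.24 for RELA (adjusted p = 3.59e-05), 0.26 for NFKB1 (adjusted p = 0.00208), -0.22 for NFKB2 (adjusted p = 0.000454), 0.35 for BIRC3 (adjusted p = 0.000214) and -0.19 for LIF (adjusted p = 0.0127), against 44.2% of all genes called. BIRC3 was at 43.3 ± 2.6 CPM with vehicle and 34.1 ± 1.5 CPM with oxamate in parental cells, but at 154 ± 5 and 155 ± 4 CPM in resistant cells. RELA rose by 0.30 and NFKB2 by 0.20 in parental cells, whereas their values in resistant cells, 0.05 and -0.01, were not called in the main fit. NFKB1 fell by 0.41 in parental and by 0.15 in resistant cells. NFKB2 (-0.11) and LIF (-0.08) were not called with library size alone, and LIF (-0.11) was not called without both libraries rich in nuclear-retained RNA. Library size alone put the median of all genes at 0.10, and relative to the median NFKB2 was -0.21 and LIF -0.18, as in the main fit. Groups of 3 libraries are too small for a test of single outlying libraries.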

How the results depend on the processing

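Of 1135 values recomputed for single genes, 1089 kept their direction and their side of the threshold. They include fits without a library outside the comparison, which could act only through the filter, the scaling and the shared spread. The agreement of those values therefore says little. With a fold change over 1.5 required, at an adjusted or an unadjusted p, the calls among the 10 genes were 0 and 0 for oxamate in parental and resistant cells, 5 and 6 for resistant against parental cells with vehicle and oxamate, and 0 for the difference between responses. Leaving out single libraries gave between 7 and 8, 2 and 3, 9 and 10, 9 and 10, and 5 and 6 calls at an adjusted p under 0.05. The main fit did not pair samples by replicate number. In no pair of groups did all 3 same-numbered pairs have a correlation of deviations over 0.1 (range -0.07 to 0.25), which cannot exclude a pairing. The values for oxamate-treated parental and vehicle-treated resistant cells were 0.02, 0.13 and 0.25, and the replicates 3 of these groups are the 2 libraries set apart above. With a replicate block the calls were 8, 3, 10, 10 and 5, the same genes. DESeq2 and limma-voom gave these counts too.

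Library totals without TMM factors put the median of all genes at 0.24 and 0.34 between the lines with vehicle and oxamate, and 0.10 for the difference between responses. Upper-quartile factors put this median at 0.10 in both comparisons of the lines. Library totals turned RELA in oxamate-treated lines to 0.26 (adjusted p = 5.90e-08), NFKB2 in resistant cells after oxamate to 0.0159, and the differences between responses of RELB to 0.104 and of NFKBIA to 0.0274. Upper-quartile factors gave 0.0196 for RELA, 0.00884 for NFKB2 and 0.00945 for RELB in the same comparisons. Less the median of all genes, these values stayed alike under every scaling tried: -0.08 for RELA, -0.01 for NFKB2, 0.01 for RELB and -0.07 for NFKBIA. BIRC3 after oxamate in resistant cells was -0.00272 without a filter and -0.00135 without both libraries rich in nuclear-retained RNA, and the RELB difference was 0.00291 at a mean count of at least 25, where ICAM1 could not be tested. RELA in oxamate-treated lines was not called at that filter (-0.04) or with 6 libraries (-0.04). The cause was not tested. Without single libraries ICAM1 ranged from -0.705 to 0.0299 and from -0.0374 to 0.489 after oxamate in parental and resistant cells, BIRC3 from -0.0181 to 0.0296 and NFKBIA from -0.000742 to 0.0184 in resistant cells, and the differences of RELB from -0.0261 to 0.0393 and of TNFAIP3 from -0.00824 to 0.0897, none of them called. The NFKBIA difference was called only without oxamate-treated parental replicate 2 (-0.09, adjusted p = 0.0453). ICAM1, with at most 29 counts per library, limits what can be said of it.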
